A study of Mus musculus with 6 samples.

Results

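The matrix metalloproteinases (Mmps), the Adamts proteases and the tissue inhibitors of metalloproteinases (Timps) were compared between mammary tumors with acinar histology and control mammary glands. The members were the genes whose probe sets carried a single symbol made of Mmp, Adamts or Timp and a number, each read by the brightest of its probe sets, that is the one whose mean log2 signal was highest. There were 37 such genes among 18193 annotated genes on the array, namely 18 Mmps, 15 Adamts proteases and 4 Timps, read by 70 probe sets. Affymetrix GeneChip M430 2.0 arrays were used, on which groups of short oligonucleotides called probe sets each read 1 transcript. RNA came from 3 acinar tumors of *K14-cre*; *Apc*CKO/+ mice and from 3 mammary glands of *cre*-negative mice of matched age, with 1 array per sample. In *K14-cre* mice the keratin 14 promoter drives Cre recombinase in skin and in mammary progenitor cells, and *Apc*CKO is a conditional allele that Cre turns into the mutant allele *Apc*Δ580. The 3 tumors were heterozygous for *Apc*Δ580, carried a truncating mutation in the remaining *Apc* allele and had arisen on a mixed genetic background. The age of the mice and the *Apc* genotype of the control glands were not given in the sources used here. The labels call the samples of a group biological replicates without naming the animals, so if some shared a mouse the p-values cover partly the spread within it.

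Mmps are zinc-dependent enzymes that cut collagens and other matrix proteins, and most are made as inactive precursors. Adamts proteases are secreted relatives that cut proteoglycans such as aggrecan and versican, trim procollagens or act on other matrix proteins. The Timps bind the active site of these enzymes and block it. In the mammary gland, stromal cells make many of them, and their balance takes part in duct branching and in the remodelling after lactation. A whole gland holds fat and connective tissue beside epithelium, and in such bulk samples fewer cells of a type cannot be told apart from less RNA per cell.

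Median signals were 130.4 to 170.7 over the 6 arrays, and signals of at least 100 were reached by 54.3% to 61.5% of probe sets. The probe set for *Apc* gave 1922.4, 2076.9 and 2148.9 in control glands, against 1922.9, 1525.9 and 2006.1 in tumors, with an adjusted p of 0.534 from limma. It is no check of the genotype, since whether its probes read the deleted part was not examined. Summed signals of 12 pan-epithelial markers were 12114 to 33328 in control glands and 94864 to 120319 in tumors, and those of 11 adipocyte markers were 195656 to 250786 against 3812 to 15381. Luminal markers summed to 16437 to 31918 in control glands and to 52396 to 71673 in tumors, and myoepithelial markers to 17278 to 19835 against 24166 to 31512. In tumors most of the luminal sum came from *Krt8* and *Krt18*, and most of the myoepithelial sum came from *Acta2* in both groups. Of 10 luminal markers 3 were higher, 3 lower and 4 did not pass, and of 9 myoepithelial markers 3, 1 and 5. Of all genes tested 16.3% were higher and 16.8% lower. Fibroblast markers, 13 in number, summed to 71579, 88789 and 83168 in control glands and to 18374, 11881 and 3382 in tumors, and all 13 were lower. Endothelial markers summed to 8444 to 10954 against 1769 to 4327, and mural cell markers to 8008 to 17072 against 3727 to 9120. Of skeletal muscle markers the sums were 7601, 199040 and 75647 in the control glands and 41825, 1842 and 522 in the tumors, so the samples of each group were uneven in muscle RNA.

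Protease and inhibitor transcripts were lower in the tumors more often than higher. Signals under 50 were set to 50 before log2 values were taken, and a gene was tested where at least 3 of the 6 arrays had a signal of at least 100. This left 24 of the 37 members and 12518 genes in all. At an adjusted p under 0.05 in limma, 14 of the 24 members were lower in tumors (58.3%, against 16.8% of all genes tested) and 1 was higher (4.17%, against 16.3%), while 9 did not pass. Every tumor lay below every control gland for 16 members (66.7%, against 23.1% of all genes) and above for 1 (4.17%, against 27.1%). Differences are given as the log2 ratio of tumor to control (the log2 fold change), with its standard error (SE), and its median was −1.98 for the tested members and 0.07 for all genes tested. An exact permutation test of 3 samples against 3 cannot give a p below 0.1, so the calls rest on the spread that limma estimates across all genes.

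Of the 14, 5 members, *Adamts6*, *Mmp9*, *Mmp11*, *Mmp19* and *Mmp23*, reached 100 in the control glands and in no tumor, and members that enter in this way had to differ. They are also among the 16 members in which every tumor lay below every control gland. Of the other 19 tested, 9 were lower (47.4%). With no filter, all 37 members could be tested, and 11 were lower (29.7%, against 8.6% of 18193 genes) and 0 were higher (against 9.36%). The median log2 ratio of the 37 was then −0.19, against 0 for all genes. These 5 were still lower there, and *Adamts1*, *Adamts12* and *Adamts15* were not called. By unadjusted p under 0.05 in that limma fit, 14 were lower and 4 higher, and the methods' t-test called 0 higher. When control replicate 1, 2 or 3 was left out, 19 members were tested and 7, 8 and 9 were lower, against 11.6%, 11.3% and 9.67% of all genes tested, and in each case the same 5 members no longer met the filter. The median log2 ratios of the members were then −1.23, −0.92 and −1.18, against 0.126, 0.076 and 0.117 for all genes tested.

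**Figure D1:**
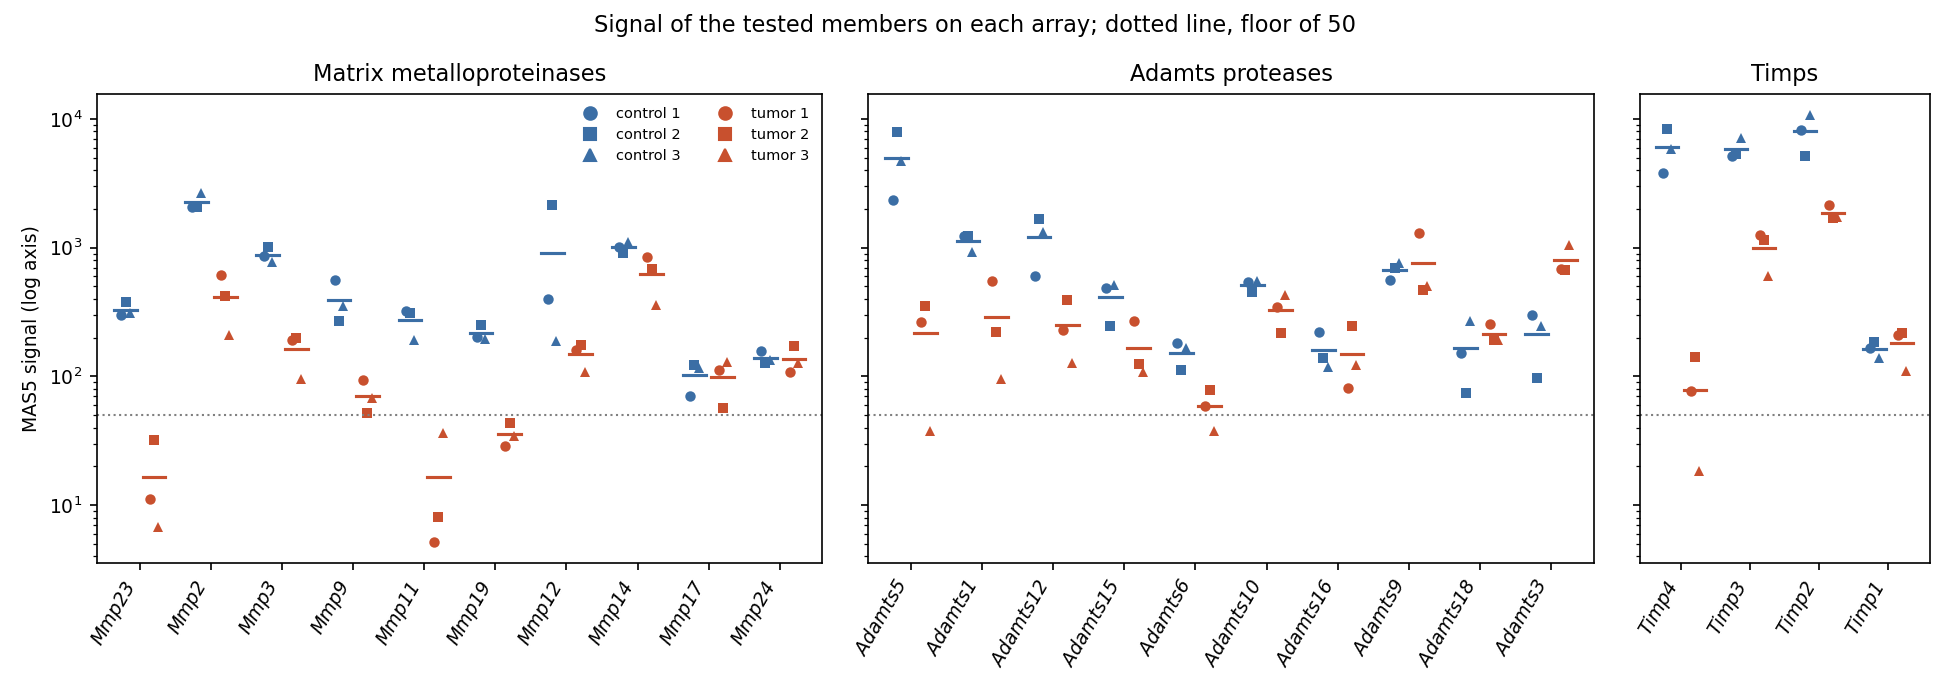
MAS5 signal (log axis) of the 24 tested members on each array, by family. Blue symbols are control glands, red symbols are tumors, horizontal bars are group means, the symbol shape gives the replicate number and the dotted line is the floor of 50; *Timp4* fell the furthest, from at least 3778.3 to 141.2 or less, while *Timp1* overlapped.

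The inhibitors are described first. Of the 4 Timps, 3 were lower in the tumors, where 16.8% of all genes tested were lower, and *Timp1* did not pass. *Timp4*, an inhibitor with high expression in fat and heart, had signals of 3778.3, 8420.3 and 5854 in control glands, against 76.9, 141.2 and 18.5 in tumors. All tumors lay far below all control glands, and the signal of tumor replicate 3 was under the floor. The log2 ratio of *Timp4* was −6.13 (SE 0.44, adjusted p = 0.000191 in limma), and its other probe set fell by 4.86. Summed adipocyte markers were low in the same tumors. They stood at 6.52%, 6.95% and 1.72% of the control mean in the 3 tumors, and *Timp4* at 1.28%, 2.35% and 0.307%. Over the control glands the values were 113%, 98.3% and 88.4% for the summed markers and 62.8%, 140% and 97.3% for *Timp4*. Single adipocyte markers took different orders there. *Lep*, like *Timp4*, was highest in control replicate 2 and lowest in control replicate 1, while *Adipoq* was highest in control replicate 1. The part of fat cells in this difference was not tested.

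*Timp3*, which binds to the matrix and also blocks Adamts proteases, had 5127.5, 5369.4 and 7172.4 in control glands, against 1261, 1137.9 and 601.4 in tumors. Its log2 ratio was −2.61 ± 0.33 (SE, adjusted p = 0.0015), and all 4 of its probe sets were lower, at −2.61 to −2.40. *Timp2*, which inhibits Mmps and also takes part in the activation of the Mmp2 precursor by Mmp14, had 8217.6, 5145 and 10770.5 in control glands, against 2139.5, 1705.1 and 1734.3 in tumors. The groups were apart for both genes, and for *Timp2* the tumors lay close together while control replicate 2 lay below the other glands. The log2 ratio of *Timp2* was −2.06 (SE 0.30, adjusted p = 0.00277), and of its 5 probe sets that met the filter 4 were lower, with values from −2.46 to −0.89. *Timp1*, a secreted inhibitor that many cells induce in inflammation and wound repair, had 166.1, 185.8 and 138.2 in control glands, against 211, 218.7 and 110.5 in tumors. Here the groups overlapped: tumor replicate 3 was the lowest of the 6 arrays and the other tumors were the highest. For *Timp1* the log2 ratio was 0.09 (SE 0.31, adjusted p = 0.853), and it turned to −0.03, −0.06 or −0.09 without control replicate 3, tumor replicate 1 or tumor replicate 2. Whether *Timp1* differed in its response from the other Timps was not tested.

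Among the Mmps, 6 of the 10 tested were lower and 0 higher, and 4 did not pass, with a median log2 ratio of −2.26. All 10 values were negative, so 0 were higher at an unadjusted p under 0.05 as well. The gelatinases, which cut denatured collagen and the type IV collagen of basement membranes, were both lower. *Mmp2*, the gelatinase of stromal cells, had 2078.3, 2075.4 and 2641.5 in control glands, against 616.1, 418.9 and 209.4 in tumors. Its log2 ratio was −2.57 ± 0.39 (SE, adjusted p = 0.00313), and both of its probe sets were lower. *Mmp9*, the gelatinase of neutrophils, macrophages and other cells, had 565.2, 269.9 and 349.6 in control glands, against 93.1, 52 and 67.4 in tumors, with a log2 ratio of −2.45 ± 0.34 (SE, adjusted p = 0.00229). The 2 genes were thus below all control glands in every tumor. Neutrophil markers summed to 17801, 1371 and 4451 in control glands and to 12468, 2688 and 3844 in tumors. Of this *Ltf* alone had 17063.1, 557.8 and 4064.9 in control glands, against 10344.8, 1461.4 and 2859.6 in tumors. *S100a8* was higher in tumors (log2 ratio 2.13, adjusted p = 0.0155 in limma), and the 2 other tested markers did not pass. Lymphocyte markers summed to 15958, 2508 and 6050 against 1214, 1599 and 979. Control replicate 1 held the highest sum of both lists and the highest *Mmp9* signal. Its *S100a8* signal, 211.2, was below the 453.4 of control replicate 2. The part of these cells in the *Mmp9* difference was not tested.

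Of the stromelysins, which cut proteoglycans, laminin and other noncollagen proteins, *Mmp3* and *Mmp11* were lower and *Mmp10* was not tested. *Mmp3*, a stromal enzyme that acts in side branching of mammary ducts, had 856.2, 1012.7 and 779.3 in control glands, against 192.6, 197 and 96.1 in tumors. Its log2 ratio was −2.51 ± 0.32 (SE, adjusted p = 0.00162). *Mmp11*, an enzyme of fibroblasts that furin activates inside the cell, had 320.7, 309.2 and 190.3 in control glands, against 5.2, 8.1 and 36.6 in tumors. Every tumor was under the floor, so *Mmp11* was at least 5.33-fold lower (adjusted p = 0.000777). The same held for *Mmp23*, a membrane-anchored member without the usual hemopexin domain, with 299.9, 378.7 and 311.2 in control glands, against 11.1, 32 and 6.7 in tumors. By this probe set *Mmp23* was at least 6.56-fold lower (adjusted p = 0.000195). Its other probe set that met the filter was lower by less, at a log2 ratio of −2.05, with tumor replicate 2 over the floor at 71.4. *Mmp19*, which cuts basement membrane proteins, was at least 4.3-fold lower (adjusted p = 0.000522).

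Of the 4 membrane-type Mmps, which act at the cell surface, 3 were tested and did not pass, and *Mmp16* did not meet the filter. *Mmp14*, the membrane enzyme that activates the Mmp2 precursor, had a log2 ratio of −0.76 ± 0.33 (SE, adjusted p = 0.119), and its 3 probe sets gave −0.78 to −0.61. *Mmp17*, which is held by a lipid anchor, had 70.2, 122.7 and 115.3 in control glands, against 112.7, 56.6 and 128.5 in tumors. *Mmp24*, known from neural tissue, had 156.6, 127 and 132.9 in control glands, against 107.2, 172.8 and 126.3 in tumors. The groups overlapped for both, at signals near the level of 100 used in the filter. The log2 ratios were −0.09 for *Mmp17* (SE 0.38, adjusted p = 0.869) and −0.06 for *Mmp24* (SE 0.25, adjusted p = 0.871), and both were positive after quantile normalization, at 0.12 and 0.18, and after setting equal array medians, at 0.15 and 0.18.

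*Mmp12*, the elastase of macrophages, is given with its signals although the rule for named genes did not call for them, and it was chosen after its values were seen. It had 401.7, 2140.8 and 189 in control glands, against 159.9, 176.3 and 108.9 in tumors. Every tumor lay below every control gland, but the glands ranged widely, with replicate 2 far above the others. The log2 ratio was −1.91 ± 0.80 (SE, adjusted p = 0.105), and without control replicate 3 it was −2.67 (adjusted p = 0.0359). Macrophage markers summed to 36837, 25680 and 22247 in control glands and to 13210, 12837 and 6555 in tumors, with 4 of 9 lower. Single macrophage markers took different orders over the control glands. *Cd68*, like *Mmp12*, was highest in control replicate 2, while *Lyz2*, like the sum, was highest in control replicate 1. The part of macrophages in the *Mmp12* signal was not tested.

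**Figure D2:**
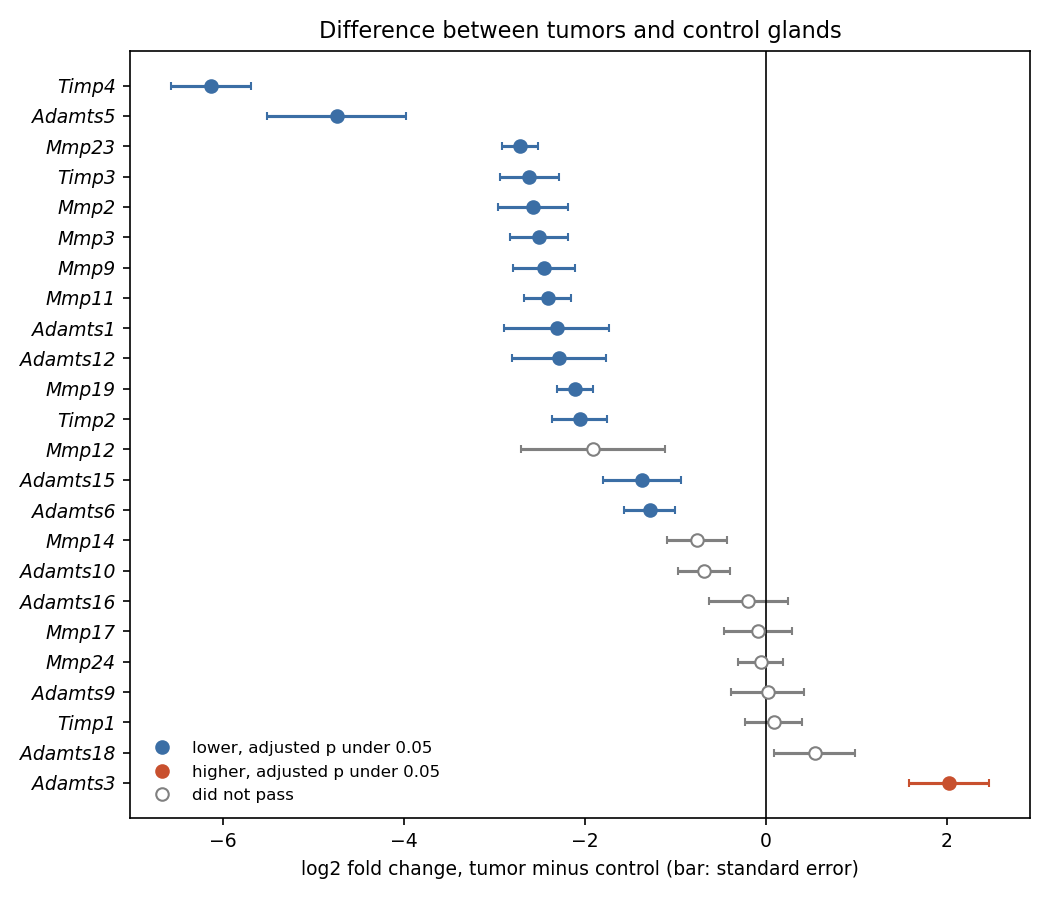
Log2 ratio of tumor to control (log2 fold change on the axis) of the 24 tested members (points) with the standard error from limma (bars), in order of size. Filled points passed at an adjusted p under 0.05; 14 lie below 0, and *Adamts3*, at 2.02, is the one above.

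Of the 10 Adamts proteases tested, 5 were lower, 1 was higher and 4 did not pass, where 16.8% of all genes tested were lower and 16.3% higher. *Adamts6*, among the 5, met the filter through the control glands alone and had to differ. The median log2 ratio was −0.99, and the values ran from −4.74 to 2.02. The proteoglycan-cutting group held 3 of the lower members. *Adamts5*, an aggrecan- and versican-cutting enzyme, had 2363.9, 7965.3 and 4722.3 in control glands, against 263, 351.7 and 37.9 in tumors. All tumors lay below all glands, and tumor replicate 3 was under the floor. Its log2 ratio was −4.74 ± 0.77 (SE, adjusted p = 0.00402), and all 3 of its probe sets that met the filter were lower, at −5.02 to −3.14. *Adamts1*, which cuts versican, had a log2 ratio of −2.31 (adjusted p = 0.0206), and *Adamts15*, of the same group, −1.37 (adjusted p = 0.0448). The call of *Adamts1* was lost without control replicate 1 (adjusted p = 0.0551), control replicate 2 (0.0586) or tumor replicate 2 (0.0648), and with no filter (0.0925). For *Adamts15* the groups overlapped, and its call was lost without control replicate 1 (adjusted p = 0.117), control replicate 3 (0.131), tumor replicate 2 (0.132) or tumor replicate 3 (0.128), with a floor of 16 (0.0525) and with no filter (0.138).

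*Adamts9*, which cuts versican and is also needed inside the cell for cilia, had 557.5, 692 and 765.5 in control glands, against 1296.2, 470.2 and 506.5 in tumors. Tumor replicate 1 was the highest of the 6 arrays and the other tumors were the lowest. The log2 ratio was 0.02 ± 0.40 (SE, adjusted p = 0.973). Without tumor replicate 1 it was −0.74 (adjusted p = 0.0486), so this array decided the value. The 3 probe sets of *Adamts9* gave −0.48 to 0.02. Of 11 members with several probe sets that met the filter, 10 had all of them in 1 direction, and *Adamts9* did not.

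*Adamts3*, which removes the N-terminal propeptide of fibrillar procollagens and helps to activate the lymphatic growth factor Vegfc, had 298.8, 96.6 and 246.3 in control glands, against 680.9, 670 and 1042.6 in tumors. Every tumor lay above every control gland. The log2 ratio was 2.02 ± 0.44 (SE, adjusted p = 0.0125), and it was 1.53 to 2.34 when 1 array was left out, passing in each case. With no filter its adjusted p was 0.0616. Of the remaining Adamts proteases, *Adamts12*, which can cut cartilage oligomeric matrix protein, was lower, at −2.29 (adjusted p = 0.0143), as was *Adamts6*, at −1.29 (adjusted p = 0.0122). With a floor of 100 *Adamts6* was at −0.59 (adjusted p = 0.0869), and with no filter *Adamts12* had an adjusted p of 0.0707. *Adamts10*, a protease that binds fibrillin, had −0.69 (adjusted p = 0.104), *Adamts16* −0.19 (adjusted p = 0.762) and *Adamts18* 0.54 (adjusted p = 0.389). For *Adamts18* 1 of 3 probe sets was higher, and the 3 gave 0.54 to 1.68. The sign of *Adamts16* turned to 0.02 after quantile normalization and to 0.04 with equal array medians.

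The remaining 13 members did not meet the filter: *Adamts4*, *Adamts7*, *Adamts8*, *Adamts19*, *Adamts20*, *Mmp1a*, *Mmp1b*, *Mmp7*, *Mmp8*, *Mmp10*, *Mmp13*, *Mmp16* and *Mmp20*. Their signals lay between 1.9 and 169.5, and 4 of them, *Adamts19*, *Mmp1a*, *Mmp1b* and *Mmp20*, stayed under 50 on all 6 arrays. The 4 secreted collagenases, *Mmp1a*, *Mmp1b*, *Mmp8* and *Mmp13*, which open the triple helix of fibrillar collagen, were all in this set, so none of these 4 could be tested. In 3 of the 13 every tumor lay above every control gland, and these are named after their values were seen. *Mmp13*, a collagenase, ranged from 30.1 to 46.6 in control glands and from 56 to 110.1 in tumors, and *Mmp7*, the matrilysin that is known as a target of Wnt signaling in intestinal tumors, from 51.3 to 83.9 and from 87.3 to 111. *Adamts4*, an aggrecan-cutting enzyme, ranged from 18.4 to 78.3 and from 90.7 to 106.3. With no filter none passed in limma: the log2 ratios were 0.80 for *Mmp13* (adjusted p = 0.148), 0.59 for *Mmp7* (adjusted p = 0.139) and 0.67 for *Adamts4* (adjusted p = 0.0777).

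On chromosome 9, 10 Mmp genes follow each other with no other protein-coding gene between them, in the order *Mmp13*, *Mmp12*, *Mmp1b*, *Mmp3*, *Mmp1a*, *Mmp10*, *Mmp8*, *Mmp27*, *Mmp20* and *Mmp7*, by the RefSeq annotation of GRCm38.p6. All but *Mmp27*, which is not analysed here, were members, and of these 9 genes 2, *Mmp3* and *Mmp12*, met the filter. In the 250 bases before the transcription start, 7 of the 9 held TGAGTCA, the site of AP-1 factors, on either strand, against 0 of the other 14 members with a sequence in the RefSeq table and 5.16% of 27025 genes. TATAAA, known as the TATA-box core, was in 7 of the 9 on either strand, in 1 of the 14, *Adamts1*, and in 14.3% of all genes, and 6 of the 9 held both, against 0.862% of all. CTTTGAA, a form that Tcf factors bind, or its variant with T as the last letter was found on either strand in *Mmp7* and in none of the other members with a sequence, and in 8.63% of all genes. The motifs overlap in none of the sequences shown. A match says only that these letters are present.

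The 100 bases before the start are shown for 4 neighbours that hold the same 2 motifs. *Mmp3* was lower, *Mmp13* and *Mmp7* were higher in each tumor but too dim to test, and *Mmp10* overlapped. Only *Mmp3* of these met the filter. *Mmp1a* and *Mmp1b*, under 50 on all arrays, hold both motifs too and are not shown. The sequences run 5′ to 3′ on the plus strand of GRCm38.p6, with TGAGTCA and TATAAA in capitals. In *Mmp13* the first is on the other strand and reads TGACTCA here. TATAAA begins 7 (*Mmp3*), 16 (*Mmp13*), 26 (*Mmp7*) and 29 (*Mmp10*) bases before the start, and whether it acts as a TATA box was not tested. The stretches lie at chr9:7445722-7445821 (*Mmp3*), chr9:7272414-7272513 (*Mmp13*), chr9:7691990-7692089 (*Mmp7*) and chr9:7502242-7502341 (*Mmp10*).
Mmp3: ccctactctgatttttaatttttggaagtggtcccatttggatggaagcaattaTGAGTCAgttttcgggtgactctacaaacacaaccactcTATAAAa
Mmp13: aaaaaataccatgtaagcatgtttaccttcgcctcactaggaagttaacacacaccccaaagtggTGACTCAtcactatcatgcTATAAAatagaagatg
Mmp7: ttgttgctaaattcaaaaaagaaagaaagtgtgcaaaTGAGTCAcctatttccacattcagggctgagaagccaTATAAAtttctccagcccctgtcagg
Mmp10: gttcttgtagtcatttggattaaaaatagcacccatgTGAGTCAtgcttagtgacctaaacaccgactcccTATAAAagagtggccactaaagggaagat

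**Figure D3:**
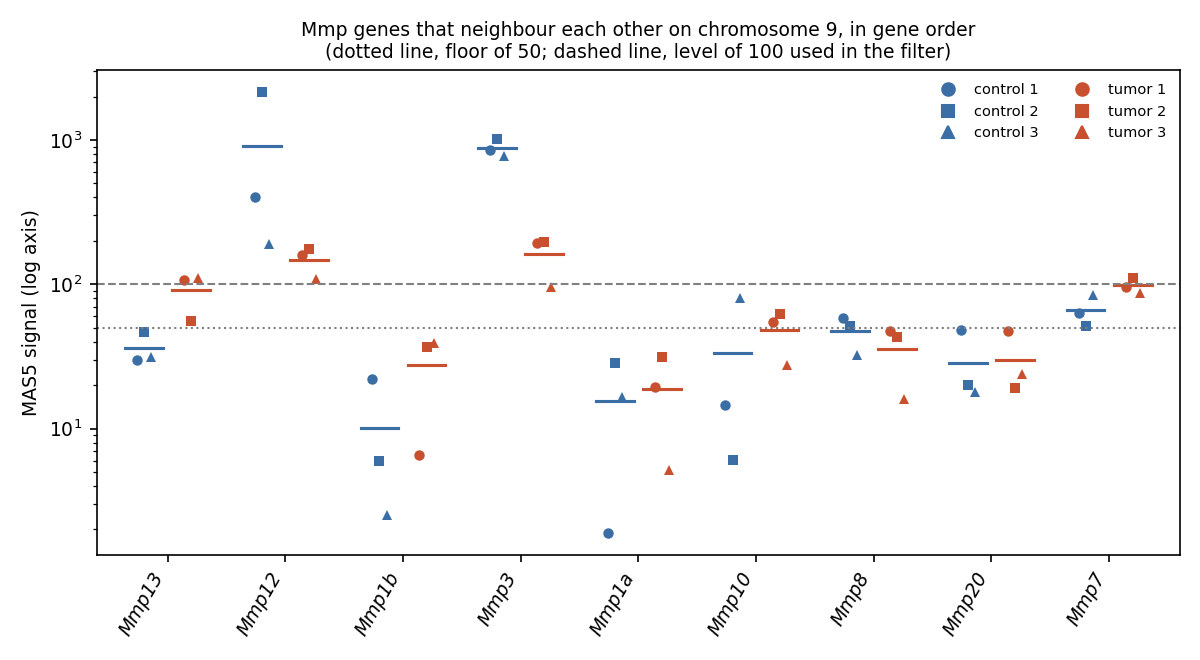
MAS5 signal (log axis) of the 9 neighbouring Mmp members on each array, in gene order along chromosome 9. Blue symbols are control glands, red symbols are tumors and horizontal bars are group means; *Mmp3* and *Mmp12* are the 2 with all control glands over the dashed line at 100, and 3 of the 9 stay under the dotted line at 50 on all arrays.

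The lower members were not equally low in the 3 tumors. Of the 14, 9 had their lowest signal in tumor replicate 3 (64.3%), 2 in tumor replicate 2 and 0 in tumor replicate 1, and 3 were tied at the floor. Among all 2098 lower genes, tumor replicate 3 was lowest for 47.9%, tumor replicate 2 for 25.7% and tumor replicate 1 for 14.6%. The median deviation of the 24 tested members from their tumor mean was 0.24, 0.07 and −0.36 on the log2 scale in tumor replicates 1, 2 and 3, while for all genes tested it was 0.04, −0.015 and 0. By family it was 0.25, 0.30 and −0.65 for the Timps, 0.20, −0.09 and −0.36 for the Adamts proteases and 0.20, 0.07 and −0.05 for the Mmps. Tumor replicate 3 also had the lowest fibroblast, adipocyte and endothelial marker sums, at 4.17%, 1.72% and 18.3% of the control mean, against 22.6%, 6.52% and 44.6% in tumor replicate 1. In the same tumors *Mmp2* was at 9.24% and 27.2%, *Timp3* at 10.2% and 21.4% and *Adamts5* at 0.755% and 5.24%. Other lower members did not follow this order: *Timp2* was at 21.6% and 26.6% and level with tumor replicate 2 at 21.2%, *Mmp9* was lowest in tumor replicate 2, at 13.2% against 17.1% in tumor replicate 3, and *Mmp11*, *Mmp19* and *Mmp23* were under the floor in all 3 tumors. Ratios of 3′ to 5′ signal, a measure of RNA integrity, were also highest in tumor replicate 3, at 2.32 for actin and 1.25 for Gapdh. For actin, control replicate 1, at 2.3, and tumor replicate 2, at 2.2, lay close to it. In tumor replicate 1 both ratios were the lowest of the 6 arrays, at 1.44 and 0.79. The part of the marker-bearing cells and of RNA integrity in the differences between the tumors was not tested. Without tumor replicate 3, 13 members were lower.

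**Figure D4:**
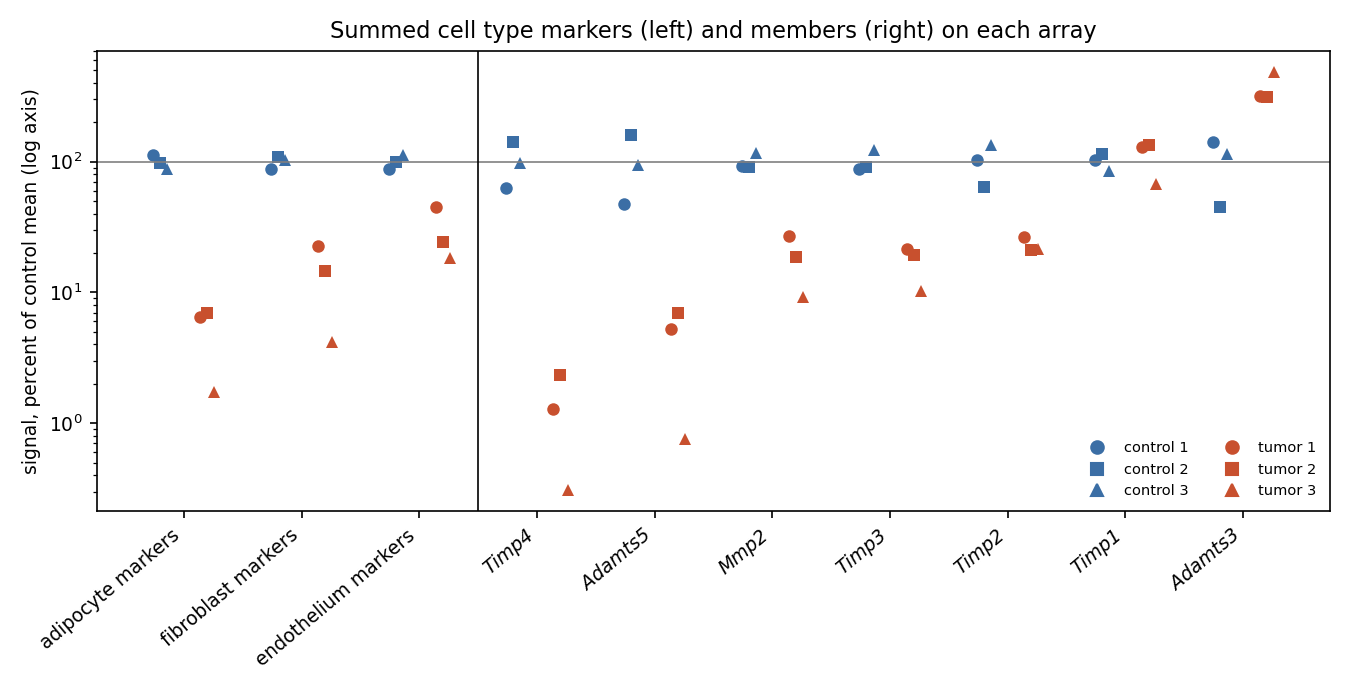
Signal on each array as a percent of the mean of the control glands (log axis), for the summed markers of 3 cell types (left of the line) and for 7 members (right). Blue symbols are control glands, red symbols are tumors and the symbol shape gives the replicate number; tumor replicate 3 has the lowest value of the tumors for the 3 marker sums and for *Timp4*, *Adamts5*, *Mmp2*, *Timp3* and *Timp1*, and all tumors exceed the control glands for *Adamts3*.

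Other genes of proteolysis at the cell surface and in the matrix were read from a list of 54 genes (activators, inhibitors, receptors and further protease families), of which 40 were tested. Of these 21 were lower and 3 higher, and 16 did not pass, with a median log2 ratio of −1.28, where 16.8% of all genes tested were lower and 16.3% higher and their median was 0.07. The 3 higher genes encode a membrane serine protease and its inhibitors. *St14*, which encodes matriptase, a protease of epithelial surfaces, had 977, 356.2 and 866.4 in control glands, against 3580.8, 3715.4 and 5011.8 in tumors. Its Kunitz-type inhibitors were higher too: *Spint2* had 1981.3, 1367.3 and 2896 against 10455.4, 10595.9 and 12570.3, and *Spint1* had 387.1, 277.6 and 590 against 1276.6, 1067.8 and 1496.2. All tumors lay above all control glands for the 3 genes. The log2 ratios were 2.60 for *St14* (adjusted p = 0.00332), 2.49 for *Spint2* (adjusted p = 0.00131) and 1.67 for *Spint1* (adjusted p = 0.00706). The pan-epithelial marker sum was at 391%, 447% and 496% of the control mean in these tumors, and its part was not tested.

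The 4 largest decreases of that list were in *Htra3* and *Htra1*, secreted serine proteases, *Lrp1*, an endocytic receptor that clears proteases and their complexes with inhibitors, and *Fap*, a surface protease of activated fibroblasts. The log2 ratios were −5.33 for *Htra3* (adjusted p = 0.000324), with 1 tumor under the floor, −3.08 for *Lrp1* (adjusted p = 0.00152), −3.02 for *Fap* (adjusted p = 0.00144) and −2.86 for *Htra1* (adjusted p = 0.0041). *Fap* is also on the fibroblast marker list. The genes furthest from passing were *Ctss*, the cathepsin of antigen-presenting cells, at 0.12 (adjusted p = 0.778), and *Reck*, a membrane-anchored inhibitor of Mmps, at −0.34 (adjusted p = 0.64).

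Of 8 proteins that Adamts proteases cut, 4 had transcripts that met the filter, and 3 of these were lower. Of all genes tested 16.8% were lower. *Dcn*, which encodes the small proteoglycan decorin, had a log2 ratio of −3.28 (adjusted p = 0.00341), *Bgn*, for its relative biglycan, one of −2.16 (adjusted p = 0.0159), and *Vwf*, for the von Willebrand factor of endothelium, one of −3.88 (adjusted p = 0.000175). *Dcn* and *Vwf* are also on the fibroblast and endothelial marker lists. *Vcan*, which encodes versican, is given with its signals after they were seen; it had 198.2, 106.9 and 269.6 in control glands, against 2398.7, 853.4 and 200.8 in tumors. Tumor replicates 1 and 2 were above all glands and tumor replicate 3 was not. For *Vcan* the log2 ratio was 2.06 (SE 0.84, adjusted p = 0.0976).

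**Figure D5:**
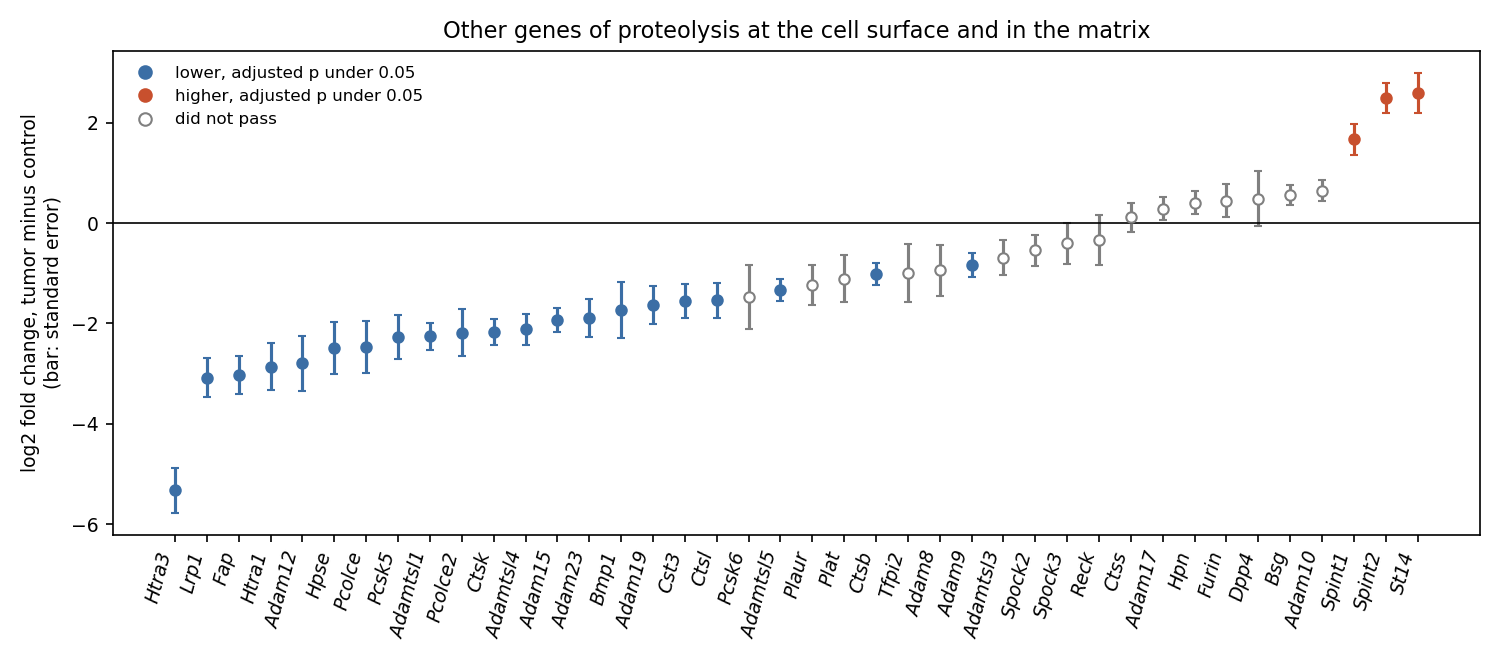
Log2 ratio of tumor to control (log2 fold change on the axis) of the 40 tested genes of proteolysis at the cell surface and in the matrix (points) with the standard error from limma (bars), in order of size. Filled points passed at an adjusted p under 0.05; 21 are lower, and *Spint1*, *Spint2* and *St14* are the 3 higher.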

How the data were processed

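RNA of 3 acinar mammary tumors and 3 control mammary glands was measured on 6 arrays. The authors made the deposited intensity values, on a linear scale, with the MAS5 algorithm and scaled each array to a target of 500; the sources used here do not give its version. Such scaling fixes the overall level of each array, so only changes relative to it can be seen. The number of arrays limits the precision.

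Of 45037 probe sets other than controls, 34945 had 1 symbol in the platform annotation, 932 had several and 9160 were unnamed here. Signals under 50 were set to 50, log2 values were taken, and probe sets with at least 100 on at least 3 of 6 arrays were kept, which for the members were 44 of 70. Each gene was read by its brightest kept probe set (highest mean log2 signal), and for each of the 24 tested members this was also the highest of all its probe sets. The groups were compared in R 4.3.3 with limma 3.58.1 (lmFit, then eBayes), 2-sided and without covariates, and p-values were adjusted by the Benjamini-Hochberg method over 12518 genes. A gene was called when its adjusted p was under 0.05, whatever its fold. Where all samples of a group lay below 50, the fold was taken against 50 and is a lower bound. The fit was tested on simulated data. Promoters came from RefSeq.

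Members and gene lists were chosen with earlier results of these data known. Values on every array are given for the called members, at most 8 in each direction by size, for each Timp and for the 4 tested members with the highest adjusted p; of the other proteolysis genes up to 4 called in each direction and the 2 with the highest adjusted p are named. Alternatives were other floors, filters, scalings and probe set rules, a replicate block, omission of each array, and the methods' t-test on linear signals with unequal variances (t of at least 4.5 either way, means differing at least 2-fold).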

Additional observations from a re-analysis of the deposited data

How the results depend on the processing

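Under the 15 limma alternatives 7 to 15 members were lower and 0 or 1 higher. Of the 15 called members, 10 kept their call wherever they could be tested. Among these, *Adamts5*, *Mmp2*, *Mmp3*, *Timp2*, *Timp3* and *Timp4* were tested in all 15 alternatives. *Mmp9* and *Mmp23* were tested in 12, and *Mmp11* and *Mmp19* in 11. *Mmp9*, *Mmp11*, *Mmp19* and *Mmp23* met the filter through the control glands alone. They were not tested when a control gland was left out, so omitting control glands cannot check their calls. Leaving out 1 array gave 7 to 15 lower and 1 higher. The methods' t-test called 7 lower and 0 higher (9 and 1 at an unadjusted p under 0.05), and 0 and 0 after Benjamini-Hochberg adjustment. With no filter 0 were higher. Other proteolysis genes called numbered 24, and 18 to 25 under the alternatives. With the replicate block the counts were 14 lower, 1 higher and 23. Same-numbered samples deviated with correlations of −0.222, 0.021 and 0.038 across genes, and differently numbered ones with −0.161 to 0.134. With 3 samples per group these values cannot decide whether same-numbered samples were paired, and the labels do not say. Over all 12518 genes 2098 were lower and 2045 higher, and with equal array medians 1666 and 3027, as the median of all genes moved from 0.07 to 0.31. Members that did not pass changed sign as follows: *Adamts16* gave 0.022 (quantile normalization), 0.043 (equal array medians) and −0.63 to 0.18 without 1 array; *Adamts9* −0.15 (mean of probe sets) and −0.74 to 0.28, the lowest without tumor replicate 1 and passing there (adjusted p = 0.0486); *Mmp17* 0.011 (floor of 100), 0.12, 0.15 and −0.35 to 0.27; *Mmp24* 0.18, 0.18 and −0.25 to 0.10; and *Timp1* −0.087 to 0.41. The cause was not tested.

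Signals under 50 carry no order here, which limits *Mmp11*, *Mmp19* and *Mmp23* to bounds for the probe sets used, and the filter at 100 left 13 members untested.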
